A study of Mus musculus with 6 samples.

Results

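The genes described here encode surface proteins of the Ly6 family or of progenitor-like fibroblasts, namely Ly6a, Ly6c1, Ly6e, Cd34, Dpp4, Pi16 and Cd55. They were chosen by name with the strain differences in these same counts already known, and were found as the rows of the count table whose symbol is one of the 7 names. Of the 7, 4 have a row among the 12023 genes of the table (Ly6a, Ly6c1, Ly6e and Cd34), and 3 of those passed the filter on low counts (Ly6a, Ly6c1 and Ly6e). The cells were primary fibroblasts of the mammary fat pad of healthy BALB/c and healthy C57BL/6 females of 8 to 12 weeks, with 3 biological replicates of each inbred strain. The labels name no transgene and no treatment. All cultures were grown for 4 days before RNA was taken, on plates coated with rat-tail collagen type I, after enzymatic digestion, lysis of red blood cells and a magnetic cell separation with an unnamed target. Reads were counted from the 3′ ends of polyadenylated RNA, and the design text gives the aim as the baseline difference between the normal fibroblasts of the strains.

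Ly6 proteins are small, cysteine-rich proteins held in the outer leaflet of the cell membrane by a glycosylphosphatidylinositol (GPI) lipid anchor. Their genes lie in a cluster, and many of them respond to interferon. Ly6a encodes Sca-1, the antigen used to sort mouse haematopoietic stem cells and mesenchymal progenitors, and inbred mouse strains carry different haplotypes of the Ly6 locus that are known for different Sca-1 levels on blood cells. In connective tissue, Pi16 (a peptidase inhibitor family member), Dpp4 (a membrane dipeptidyl peptidase), Cd34 (a sialomucin), Cd55 (a GPI-anchored complement regulator) and Ly6a and Ly6c1 together mark the fibroblasts of adventitia and fascia from which more specialised fibroblasts and adipocytes can arise. The same antigens are not specific to fibroblasts: Ly6a, Ly6c1 and Cd34 are also found on endothelium, and Ly6a and Ly6c1 on blood cells.

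On GRCm38 (the assembly of mm10), with GENCODE vM21, Ly6e lies at chromosome 15, 74955051 to 74959905 on the plus strand, Ly6a at 74994877 to 74998031 on the minus strand and Ly6c1 at 75044018 to 75048830 on the minus strand. The gene starts of Ly6e and Ly6c1 are 43 kb and 50.8 kb from that of Ly6a. No exon of these 3 genes overlaps an annotated exon of another gene. Cd34 and Cd55 lie apart from each other on chromosome 1, at 194938819 to 194961279 and 130439027 to 130462744, Dpp4 on chromosome 2, at 62330073 to 62412231, and Pi16 on chromosome 17, at 29317680 to 29330593. The last 240 coding bases of Ly6a and Ly6c1, the 2 members with the largest strain differences, are shown so that their likeness can be read directly. They are the GENCODE reference sequence 5′ to 3′ on the coding strand up to the codon before the stop (bases 163 to 402 of Ly6a and 154 to 393 of Ly6c1), and capitals mark runs of at least 12 aligned bases that are identical in both.
Ly6a: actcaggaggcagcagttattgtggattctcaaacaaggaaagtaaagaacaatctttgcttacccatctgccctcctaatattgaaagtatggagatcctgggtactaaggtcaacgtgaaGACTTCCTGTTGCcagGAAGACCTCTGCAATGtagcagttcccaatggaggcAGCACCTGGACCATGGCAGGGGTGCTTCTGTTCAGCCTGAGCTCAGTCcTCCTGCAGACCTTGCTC
Ly6c1: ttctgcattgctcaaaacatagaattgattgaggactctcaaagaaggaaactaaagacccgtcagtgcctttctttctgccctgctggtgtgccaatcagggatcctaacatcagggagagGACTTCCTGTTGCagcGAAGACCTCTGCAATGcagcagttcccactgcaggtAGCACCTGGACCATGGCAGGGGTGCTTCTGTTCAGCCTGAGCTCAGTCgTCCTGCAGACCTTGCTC
Over the whole coding sequence the pair shares 329 of 393 aligned bases, or 83.7%, with 7 identical runs of at least 12 bases, the longest of 48. The stretch shown ends in long shared runs, where the signal for GPI attachment is encoded, and begins with a region that differs. Ly6e is more distant, with 59.2% identity to Ly6a and 58.4% to Ly6c1. At the 3′ end, which these libraries count, the last 500 nt of the Ly6c1 transcript match Ly6c2 over 496 nt at 98.2% identity, and a pseudogene, I830127L07Rik, over 105 nt at 96.2%. The last 500 nt of Ly6a match the same pseudogene over 116 nt at 96.6%. Neither Ly6c2 nor the pseudogene has a row in the table, and no stretch of Ly6a and Ly6c1 met these limits against each other. The counts of Ly6c1, and less so of Ly6a, are therefore uncertain to the extent that shared reads were dropped or moved.

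Of the 7 members, 5 have an upstream sequence in the RefSeq table (Ly6c1, Cd34, Dpp4, Pi16 and Cd55). The 250 bases before each start were searched on both strands for the interferon-gamma activated site (TTCNNNGAA), the core of the interferon-stimulated response element and a TATA box (TATAAA). Of the first start sites of 27025 genes, 7.18%, 3.04% and 12.97% hold these letters. Ly6c1, the gene of the pair for which a sequence is given, holds TATAAA once, 143 bases before its first start site and in capitals here, and neither interferon motif (GRCm38.p6, chr15:75048838-75049087, minus strand).
Ly6c1 upstream: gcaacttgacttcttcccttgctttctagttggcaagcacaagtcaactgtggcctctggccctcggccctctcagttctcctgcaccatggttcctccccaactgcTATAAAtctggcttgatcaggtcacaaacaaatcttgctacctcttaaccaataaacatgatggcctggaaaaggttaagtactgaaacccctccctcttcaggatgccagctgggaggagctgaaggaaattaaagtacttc
Its other start site has none of the 3 motifs. Dpp4 holds the response element core 52 bases and TATAAA 227 bases before its start, and Cd34, Pi16 and Cd55 hold none. A match is a description of the letters and not a site, and these windows leave the rest of each locus unsearched.

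Total counts were 1035485 to 2713611 in BALB/c and 1295349 to 4665896 in C57BL/6. Levels are given as CPM, counts scaled to a common library total after TMM, a factor that aligns the bulk of genes between libraries. C57BL/6 replicate 1 stood apart from the rest, with a mean correlation of log2 CPM with the other 5 libraries of 0.779 against 0.870 to 0.910. Of 19 general fibroblast markers 18 had a row, Sparc, Vim and Fn1 at the highest levels, and their sum took 2.28%, 1.10% and 1.72% of all counts in BALB/c replicates 1 to 3, against 0.490%, 2.41% and 1.34% in C57BL/6 replicates 1 to 3. Mammary epithelial markers (20 of 26 with a row) took 0.244%, 1.49% and 1.11% in BALB/c and 2.18%, 0.394% and 1.45% in C57BL/6, so the cultures also held epithelial RNA, least in BALB/c replicate 1 and C57BL/6 replicate 2. Over all genes, the quasi-likelihood test of edgeR called 18 of 8752 (0.206%) with a Benjamini-Hochberg threshold of 0.05. Of these 6 were higher in BALB/c (0.0686%) and 12 lower (0.137%), against 5 and 6 when library totals alone took the place of TMM. At an unadjusted p under 0.05 there were 338 of 8752 genes (3.86%), and 48.9% of all tested genes had a lower value in BALB/c, the shares against which the counts over gene lists below are to be read. Among the 3 members past the filter, Ly6a was called, a call that 7 of 12 alternative settings lost. The members were chosen with this comparison known, so nothing is read from that count, and their strain differences are given below as descriptions without a test.

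Ly6a was low in all BALB/c cultures and high in all C57BL/6 cultures. It had 15, 46 and 19 counts in BALB/c replicates 1, 2 and 3, against 427, 136 and 1812 counts in C57BL/6 replicates 1, 2 and 3. As levels these were 10.0, 16.5 and 18.4 CPM in BALB/c and 326, 106 and 370 CPM in C57BL/6. The strains did not overlap, and the lowest C57BL/6 library, replicate 2, lay 5.78-fold above the highest BALB/c library, replicate 3. Every BALB/c library lay below every C57BL/6 library in 6.22% of all tested genes, and above in 5.15%. The mean was 14.95 ± 4.39 CPM in BALB/c, against 267 ± 141 CPM in C57BL/6 (SD, n = 3 each), and the log2 difference, BALB/c minus C57BL/6, was -4.16 with a standard error of 0.55. Read against the rest of the transcriptome, Ly6a lay near the middle of the table in BALB/c and near its top in C57BL/6: 43.7% of the 12023 genes had a lower mean level in BALB/c, and 94.1% in C57BL/6. In bulk RNA, fewer cells that carry Ly6a and less Ly6a RNA per cell cannot be told apart. Reads of BALB/c alleles can also be lost in alignment to a C57BL/6J genome, for Ly6a as for Ly6c1, which was not tested.

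**Figure D1:**
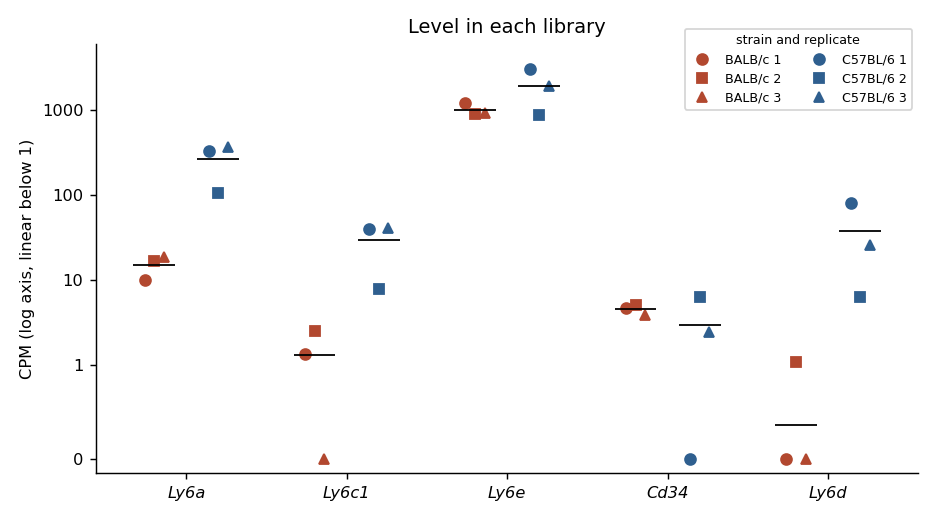
Level in CPM of the 4 members with a row and of Ly6d, a gene of the same cluster, in each library (vertical log axis, linear below 1; BALB/c in red and C57BL/6 in blue, symbols for replicates 1, 2 and 3, lines for the mean of 3 libraries). Ly6a, Ly6c1 and Ly6d lie lower in every BALB/c library than in any C57BL/6 library, while Ly6e and Cd34 overlap.

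Ly6c1, which encodes a Ly-6C antigen of endothelium and subsets of lymphocytes and fibroblasts, showed the same split at a much lower level. It had 2, 7 and 0 counts in BALB/c replicates 1, 2 and 3, against 52, 10 and 201 counts in C57BL/6 replicates 1, 2 and 3. These were 1.33, 2.51 and 0 CPM in BALB/c and 39.7, 7.82 and 41.0 CPM in C57BL/6. Ly6c1 passed the filter on low counts only through its C57BL/6 libraries. The strains did not overlap here either, but the gap was 3.12-fold between the nearest libraries, again C57BL/6 replicate 2 and the highest BALB/c library, replicate 2. In BALB/c replicate 3 a count of 0 allows up to 2.90 CPM, which is above both other BALB/c values. The mean was 1.28 ± 1.25 CPM in BALB/c, against 29.5 ± 18.8 CPM in C57BL/6 (SD, n = 3 each), and the log2 difference was -4.23 with a standard error of 0.90. Summed over libraries, 9 counts in BALB/c and 263 in C57BL/6 make a level 20.8-fold higher in C57BL/6 per scaled total, with an exact 95% counting interval of 10.8 to 46.0. For Ly6a, 80 and 2375 counts make it 21.1-fold higher in C57BL/6, with an interval of 16.9 to 26.7. The counting intervals here and below cover counting error only. For Ly6a and Ly6c1, chosen with this comparison known, they are no test of the strains.

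Ratios of 2 genes within one library are free of any scaling between libraries. Ly6a made up 0.818%, 1.81% and 1.95% of the counts of Ly6a plus Ly6e in BALB/c replicates 1, 2 and 3, against 9.60%, 10.9% and 16.3% in C57BL/6 replicates 1, 2 and 3. The highest BALB/c interval, exact at 95%, ended at 3.04% and the lowest C57BL/6 interval began at 8.75%. The lower Ly6a values of BALB/c did thus not depend on the scaling, and their distance from C57BL/6 relative to Ly6e was smaller than in CPM. These are the same Ly6a counts, of a member chosen with the strain difference known. The intervals are therefore no test of the strains. Ly6e also had a lower mean in BALB/c. The share of Ly6c1 among Ly6c1 plus Ly6a counts was 11.8%, 13.2% and 0% in BALB/c and 10.9%, 6.85% and 9.99% in C57BL/6. Pooled over the 3 libraries of a strain this share was 10.1% (95% interval 4.73% to 18.3%) of 89 counts in BALB/c and 9.97% (8.85% to 11.2%) of 2638 counts in C57BL/6. The wide interval in BALB/c lies on both sides of that of C57BL/6, so a moderate difference in this share was not detectable at this depth.

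**Figure D2:**
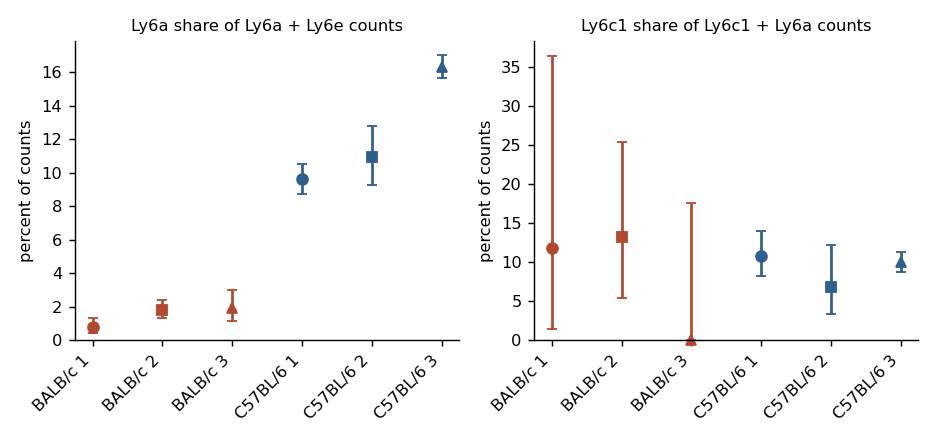
Share of counts within each library with its exact 95% interval (bars), for Ly6a among Ly6a plus Ly6e counts on the left and for Ly6c1 among Ly6c1 plus Ly6a counts on the right (percent, BALB/c in red and C57BL/6 in blue). On the left the BALB/c libraries lie between 0.818% and 1.95% and the C57BL/6 libraries between 9.60% and 16.3%, and on the right all intervals overlap.

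Ly6e, a Ly6 protein that restricts coronavirus entry and serves as the receptor of syncytin-A in the placenta, was by far the most abundant member. It had 1819, 2498 and 953 counts in BALB/c replicates 1, 2 and 3, against 4019, 1107 and 9294 counts in C57BL/6 replicates 1, 2 and 3. Its levels were 1213, 894 and 922 CPM in BALB/c and 3070, 865 and 1896 CPM in C57BL/6. The strains overlapped, because C57BL/6 replicate 2 lay below every BALB/c library. By mean level over the 6 libraries it ranked 105 of 12023 genes. The mean was 1010 ± 177 CPM in BALB/c, against 1944 ± 1103 CPM in C57BL/6 (SD, n = 3 each), and the log2 difference was -0.94 with a standard error of 0.44. Without C57BL/6 replicate 1, the library that stands apart, it was -0.47 with a standard error of 0.34, whereas Ly6a and Ly6c1 had -4.02 and -3.99 there. Within C57BL/6 the highest library exceeded the lowest 3.55-fold for Ly6e, 3.48-fold for Ly6a and 5.25-fold for Ly6c1, and for all 3 genes the lowest was replicate 2.

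Cd34, the sialomucin of haematopoietic, endothelial and fibroblast progenitors, was close to the limit of detection in both strains. It had 7, 14 and 4 counts in BALB/c replicates 1, 2 and 3, against 0, 8 and 12 counts in C57BL/6 replicates 1, 2 and 3. These were 4.67, 5.01 and 3.87 CPM in BALB/c and 0, 6.25 and 2.45 CPM in C57BL/6, and the strains overlapped. The 0 of C57BL/6 replicate 1 allows up to 2.29 CPM. Its exons overlap those of Gm16897 on the other strand, so reads of the 2 may not be told apart. Cd34 did not pass the filter on low counts. In the fit without a filter its log2 difference was 0.69 with a standard error of 0.87. The sum of 25 counts in BALB/c and 20 in C57BL/6 gives a ratio, BALB/c over C57BL/6, of 1.76 per scaled total with an exact 95% counting interval of 0.937 to 3.34, so a difference was not detectable at this depth. Dpp4, Pi16 and Cd55 have no row in the table and their levels are not analysed here. The lowest maximum over the 6 libraries of any gene with a row is 6 counts.

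Within 500 kb of the Ly6a start the annotation has 27 protein-coding genes, of which 8 have a row and 6 were tested. Besides the members these were Lynx1, a Ly6 protein that tunes nicotinic receptors, Them6 and Arc, a regulator of synaptic receptors. None of these 3, which are named after their values were seen, was called by edgeR. Lynx1 had a log2 difference of -0.65 with a standard error of 0.48, Them6 one of -0.38 with 0.65 and Arc one of -0.30 with 0.86. These 3 non-members had negative values, as did Ly6c1 and Ly6e, which are members chosen with this comparison known. Over all tested genes 48.9% had a lower value in BALB/c. The standard errors of the 3 non-members are as large as much of their differences.

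**Figure D3:**
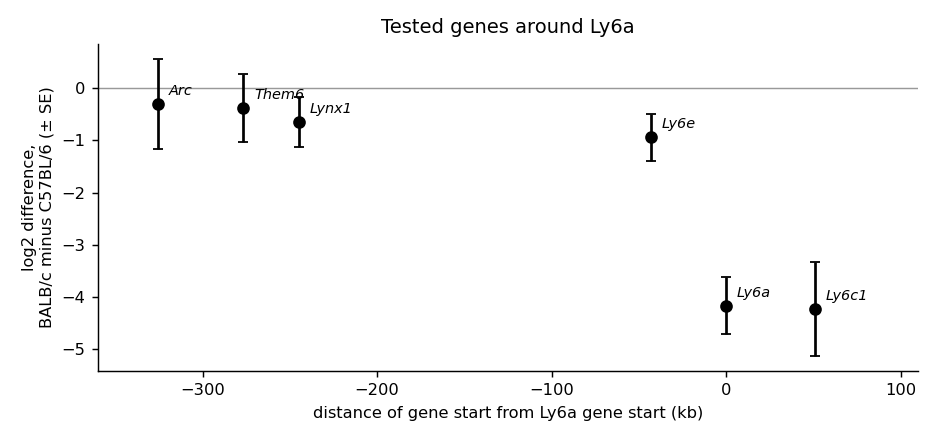
log2 difference, BALB/c minus C57BL/6 (bars are 1 standard error) for the 6 tested genes within 500 kb of Ly6a, against the distance of each gene start from that of Ly6a in kb. Ly6a and Ly6c1 lie at -4.16 and -4.23, and the other genes lie between -0.94 and -0.30.

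A further gene of the cluster, Ly6d, a marker of keratinocytes, of luminal mammary epithelium and of early B cells, starts 234.4 kb from Ly6a. It did not pass the filter and is described here after its values were seen. Ly6d had 0, 3 and 0 counts in BALB/c replicates 1, 2 and 3, against 105, 8 and 126 counts in C57BL/6 replicates 1, 2 and 3, so the strains did not overlap. Per scaled total, 3 counts in BALB/c against 239 in C57BL/6 make a level 56.7-fold higher in C57BL/6, with an exact 95% counting interval of 19.2 to 277. Among the C57BL/6 libraries Ly6d was 19.7% of the counts of Ly6d plus Ly6a in replicate 1 (95% interval 16.4% to 23.4%), 5.56% in replicate 2 (2.43% to 10.7%) and 6.50% in replicate 3 (5.44% to 7.69%). Replicate 1 is also the C57BL/6 library with the highest share of epithelial markers. These markers took 0.244%, 1.49% and 1.11% of all counts in BALB/c replicates 1 to 3, and 2.18%, 0.394% and 1.45% in C57BL/6. The part of epithelial cells in the Ly6d counts was not tested. Ly6k, the other gene of the window below the filter, starts 198 kb from Ly6a, and its strains overlapped. It had 11, 10 and 2 counts in BALB/c replicates 1, 2 and 3, and 2, 6 and 10 counts in C57BL/6 replicates 1, 2 and 3.

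Few other genes of the Ly6 and urokinase receptor family had enough counts for the test. Of 39 listed, 9 had a row and 4 were tested, and 0 passed in edgeR, 0 at an unadjusted p under 0.05 and 0 in DESeq2 or in limma-voom with library quality weights. Their median log2 difference was -0.09, beside 0.01 over all tested genes. Plaur, the urokinase receptor, was at 220 ± 44.5 CPM in BALB/c, against 229 ± 87.3 CPM in C57BL/6, and Lypd3, an epithelial Ly6 protein, at 32.1 ± 23.7 CPM in BALB/c, against 21.9 ± 11.6 CPM in C57BL/6 (SD, n = 3 each). Ly6c2, Ly6i, Ly6g and Ly6f, which neighbour Ly6a and Ly6c1, have no row. Gpihbp1, the Ly6 protein that holds lipoprotein lipase on capillary endothelium, was below the filter with 1, 0 and 0 counts in BALB/c and 5, 12 and 10 counts in C57BL/6, and is named after its values were seen. Of the other rows below the filter, Ly6d is given above, and Ly6k, Ly6h and Ly6g6d overlapped between the strains. Summed counts of Ly6k and Ly6h were higher in BALB/c (23 and 8, against 18 and 1), and those of Ly6g6d were lower (2 against 11).

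Other genes of progenitor fibroblasts were split between the directions. Of 40 listed, 32 had a row and 25 were tested, 13 with a higher and 12 with a lower value in BALB/c and a median log2 difference of 0.05. None passed in edgeR, where 2 of 25 had an unadjusted p under 0.05, beside 3.86% of all tested genes. Cd81, a tetraspanin, was at 587 ± 50.4 CPM in BALB/c, against 953 ± 442 CPM in C57BL/6, and Gsn, the actin-severing gelsolin, at 401 ± 119 CPM in BALB/c, against 495 ± 53.3 CPM in C57BL/6 (SD, n = 3 each). Among others of the list, named after their values were seen, the log2 difference was -0.07 for Fbn1 (fibrillin), 0.43 for Mfap5 (a microfibril protein) and -0.20 for Cd248 (endosialin). Uchl1, a ubiquitin hydrolase named for the lowest p of the list, was at 57.5 ± 12.1 CPM in BALB/c, against 192 ± 38.4 CPM in C57BL/6. All 3 BALB/c libraries lay below all 3 C57BL/6 libraries, and the log2 difference was -1.74 (edgeR adjusted p = 0.120). DESeq2 gave it an adjusted p of 6.5e-05, and limma-voom with quality weights one of 0.0244.

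Ly6a, Ly6c1, Ly6e and Cd55 share the GPI anchor, so other anchored proteins and the genes that build the anchor were set beside them. Of 25 tested genes listed as GPI-anchored surface proteins, 8 were higher and 17 lower in BALB/c with a median log2 difference of -0.10. Ceacam1, 1 of the 17 (log2 difference -1.22), is a transmembrane protein and not anchored in this way. Of 19 genes of anchor synthesis and attachment 11 were higher and 8 lower with a median of 0.07. None of either list passed in edgeR, DESeq2 or limma-voom with quality weights, and 3 of 25 and 0 of 19 had an unadjusted p under 0.05 in edgeR, beside 3.86% of all tested genes. Bst2, the anchored antiviral protein tetherin, was at 681 ± 174 CPM in BALB/c, against 1112 ± 182 CPM in C57BL/6, and Thy1, the fibroblast and T cell antigen, at 367 ± 224 CPM in BALB/c, against 443 ± 230 CPM in C57BL/6 (SD, n = 3 each). Of 8 tested complement regulators, the functional relatives of Cd55, 3 were higher and 5 lower, and 0 passed in edgeR, with 1 at an unadjusted p under 0.05 and 0 in the other tools. Clu, the secreted chaperone clusterin, had a log2 difference of -0.58 with a standard error of 0.71, and Serping1, the inhibitor of the first complement component, one of -0.77 with 0.71.

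Since Ly6 genes respond to interferon, 34 interferon response genes were set beside them. Of these 12 were higher and 22 lower in BALB/c, with a median log2 difference of -0.24, and 0 passed in edgeR, DESeq2 or limma-voom with quality weights, with 4 of 34 at an unadjusted p under 0.05 in edgeR, beside 3.86% of all tested genes. The list's sum took 0.440% to 0.603% of counts in BALB/c and 0.582% to 0.626% in C57BL/6. The ranges overlap.

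**Figure D4:**
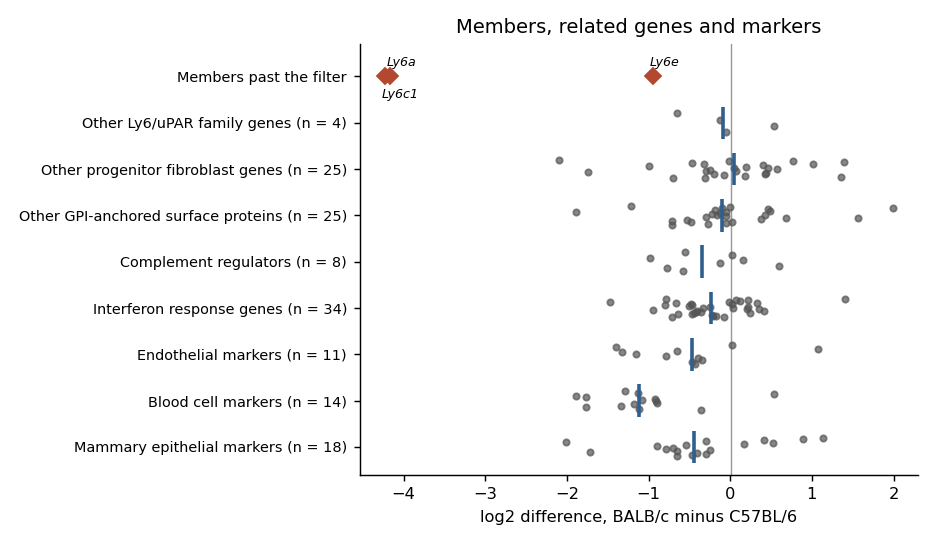
log2 difference, BALB/c minus C57BL/6, of the 3 members past the filter (red diamonds) and of the tested genes of 8 lists (grey points, with the median as a blue line and n tested in the label), with a grey line at the median of all tested genes. No tested gene of these lists reaches the values of Ly6a and Ly6c1, which were chosen with this comparison known, so nothing is read from that. Blood cell markers have the lowest median, -1.12. Genes below the filter on low counts, among them Ly6d, are not shown.

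Markers of other cells that carry Ly6a or Ly6c1 were present in the cultures of both strains. Blood cell markers had 19 of 33 genes with a row, and their sum took 0.109%, 0.0696% and 0.0954% of counts in BALB/c replicates 1 to 3, against 0.181%, 0.106% and 0.165% in C57BL/6 replicates 1 to 3. Of 14 tested, 13 were lower in BALB/c, with a median log2 difference of -1.12, and 0 passed in edgeR, where 9 had an unadjusted p under 0.05. Over all tested genes 48.9% were lower and 3.86% had such a p. C1qb, a complement component made by macrophages, was at 47.9 ± 9.88 CPM in BALB/c, against 163 ± 88.5 CPM in C57BL/6 (SD, n = 3 each), with a DESeq2 adjusted p of 0.0332. Ptprc, the pan-leukocyte antigen CD45, had 2, 3 and 2 counts in BALB/c and 0, 5 and 18 counts in C57BL/6, and Cd3e, a T cell marker, has no row. Endothelial markers had 17 of 22 with a row and took 0.0256% to 0.0402% of counts in BALB/c and 0.0339% to 0.0524% in C57BL/6, with 9 of 11 tested lower in BALB/c and a median of -0.47. The part of these cells in the levels of Ly6a and Ly6c1 was not tested.

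The share of epithelial markers can be set beside Ly6a directly. In the library of each strain with the lowest share of epithelial markers, 0.244% in BALB/c replicate 1 and 0.394% in C57BL/6 replicate 2, Ly6a was at 10.0 and 106 CPM, 10.6-fold higher in C57BL/6. Ly6c1 was at 1.33 and 7.82 CPM in the same 2 libraries, 5.86-fold higher in C57BL/6, but on only 2 and 10 counts. Ly6e was at 1213 and 865 CPM there. Ly6a and Ly6c1 were thus lower in BALB/c in this pair of libraries, 1 per strain, and Ly6e was higher. Within C57BL/6 the 2 libraries rich in epithelial markers, replicates 1 and 3, had the higher Ly6a, Ly6c1 and Ly6e, and also the higher blood cell sums. Within BALB/c the 2 libraries richer in these markers, replicates 2 and 3, had the higher Ly6a but the lower Ly6e and blood cell sums. They had 16.5 and 18.4 CPM of Ly6a, 894 and 922 CPM of Ly6e, and 2.51 and 0 CPM of Ly6c1.

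**Figure D5:**
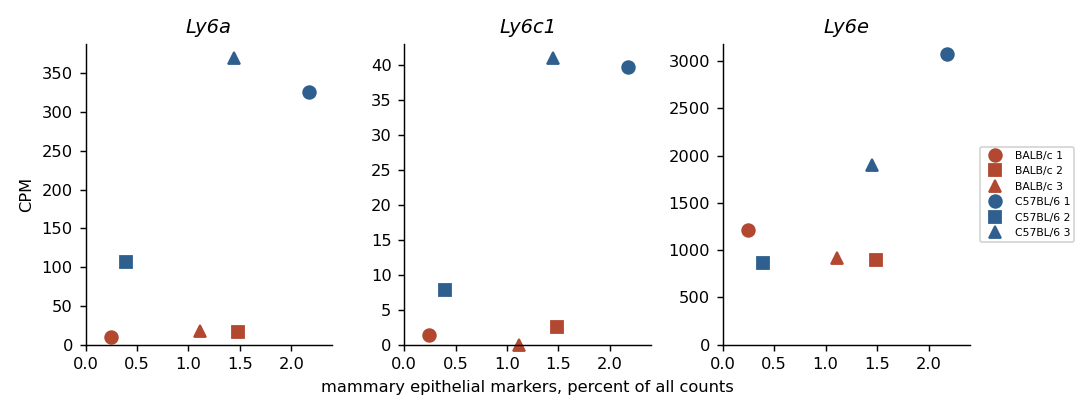
Level in CPM of Ly6a, Ly6c1 and Ly6e in each library against the percent of all counts taken by mammary epithelial markers (BALB/c in red, C57BL/6 in blue, symbols for replicates). At a share of 0.244% in BALB/c replicate 1 and 0.394% in C57BL/6 replicate 2, Ly6a was at 10.0 and 106 CPM.

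The genes with the nearest profile over the 6 libraries were found by the root mean square difference of log2 CPM after removal of each gene's mean, among tested genes whose mean log2 CPM was 5 or more. For Ly6c1 the nearest of 4453 genes was Ly6a, at 0.72, followed by Acta1, skeletal muscle actin, at 1.08, and Ppt1, a lysosomal thioesterase, at 1.17. For Ly6a the nearest of 4452 genes were Acta1 at 0.86, Wfdc18, a secreted epithelial protein, at 1.04, and Pop4, a subunit of ribonuclease P, at 1.07. Ly6c1 itself lies below the minimum level and was not a candidate there. Acta1 was at 105, 236 and 225 CPM in BALB/c replicates 1 to 3, against 1487, 650 and 906 CPM in C57BL/6 replicates 1 to 3, so it too was lowest in replicate 2 among the C57BL/6 libraries, where it was highest in replicate 1. For Ly6e the nearest were Tyrobp, the signalling adaptor of myeloid and NK cell receptors, at 0.13, Pqlc2, a lysosomal amino acid transporter, at 0.22, and Acp5, an acid phosphatase of macrophages and osteoclasts, at 0.23. Tyrobp was at 44.7, 37.9 and 35.8 CPM in BALB/c and 125, 35.2 and 61.8 CPM in C57BL/6, with the highest level in C57BL/6 replicate 1, as for Ly6e. With 6 libraries and this many candidates such likeness is a description only.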

How the data were processed

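Per the labels, 3′ end libraries of polyadenylated RNA were made from 3 cultures of each strain. The authors deposited raw counts per gene symbol. They name STAR 2.4.2a, HTSeq, bcl2fastq and the build mm10, per the submitters' processing notes. Settings, annotation, strand use and the handling of multiply mapped reads or molecular identifiers are unknown here. As mm10 is a C57BL/6J genome, reads of BALB/c alleles can be lost in alignment, which was not tested. The header separates its first names by spaces, and columns were matched by library name; 0 other columns were present.

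Counts were fitted with edgeR 4.0.16 in R 4.3.3 (filterByExpr by strain, TMM, robust quasi-likelihood, strain as the only term, two-sided, Benjamini-Hochberg over 8752 genes, threshold 0.05), also tested on simulated data. Upstream motifs were searched in the RefSeq table. DESeq2 1.42.0, limma 3.58.1 (voom with library quality weights), other scalings, no filter, a replicate block and the omission of each library were alternatives. CPM use TMM-scaled totals, and log2 CPM a prior count of 2. Total counts of 1035485 to 4665896 set the counting precision, 3 counts being 2.90 to 0.612 CPM. Pairs of libraries of a strain differed beyond sampling noise (chi-square per degree of freedom 10.8 to 57.2 over 5541 genes). Copies of 3′ ends were searched with BLAST 2.17.0 over the last 500 nt of 1 transcript per gene (at least 95% identity over at least 60 nt), and coding sequences were aligned with Biopython 1.88.

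The members and gene lists were chosen with earlier results of these data known, and members were left out of the lists. Genes were named as the members, the 3 nearest profiles of each tested member, genes of a list past the threshold or otherwise its 2 tested genes of highest mean log2 CPM, and called neighbours of Ly6a; others are marked as named after their values were seen, or are markers or examples of a list.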

Additional observations from a re-analysis of the deposited data

How the results depend on the processing

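The log2 differences of Ly6a, Ly6c1 and Ly6e kept their negative sign in all 12 alternatives, with ranges of -4.53 to -3.87, -5.18 to -3.85 and -1.28 to -0.47. Ly6a was past the threshold in 5 of the 12, Ly6c1 in 1 (DESeq2) and Ly6e in 0. The 5 settings that called Ly6a called 5 to 71 genes in all, of 8752 to 12023 tested, and DESeq2 called 71 of 8752. The members were chosen with this comparison known and the alternatives refit the same counts, so nothing is read from these signs and calls. The call of Ly6a was lost with library totals alone, with the replicate block and without each library other than C57BL/6 replicate 2. The count of 18 called genes was 11 with library totals alone, 71 with DESeq2 and 57 with limma-voom's quality weights, and ranged from 0 to 25 when 1 library was left out: 0 without BALB/c replicate 2 or 3 or C57BL/6 replicate 3, 4 without BALB/c replicate 1, 5 without C57BL/6 replicate 2 and 25 without C57BL/6 replicate 1. At an unadjusted p under 0.05 edgeR had 205, 226 and 261 genes in the settings with 0 calls that leave out a library. The cause was not tested. Of 202 tested list genes, 0 passed in edgeR (27 at an unadjusted p under 0.05, beside 338 of all 8752 tested genes, or 3.86%), 6 in DESeq2 and 2 in limma-voom with quality weights. With the replicate number as a block edgeR called 0 genes, and 158 had an unadjusted p under 0.05. The deviations of same-numbered libraries had correlations of -0.42, -0.45 and -0.05, so these libraries did not vary together. Whether same-numbered cultures were prepared together cannot be decided from these values, as the cultures also differed in epithelial RNA. Depth limits Ly6c1 and Ly6d in BALB/c and Cd34 in both strains.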

Other observations

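Genes of committed preadipocytes and reticular fibroblasts, the cell states set against the progenitor state, were also compared. Of 16 tested, 6 had a higher and 10 a lower value in BALB/c, with a median log2 difference of -0.27. None passed in edgeR, where 5 had an unadjusted p under 0.05, beside 3.86% of all tested genes. Those 5, named after their values were seen, included Mgp, an inhibitor of calcification, at 81.5 ± 19.8 CPM in BALB/c, against 21.6 ± 13.7 CPM in C57BL/6 (SD, n = 3 each). Mgp had adjusted p values of 0.0492 in DESeq2 and 0.0138 in limma-voom with quality weights. Col4a1, a basement membrane collagen, averaged 446 ± 109 CPM in BALB/c, against 953 ± 280 CPM in C57BL/6.

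Pericyte and smooth muscle markers had 8 of 9 tested genes with a lower value in BALB/c, a median log2 difference of -0.69, and 0 passing in edgeR (3 at an unadjusted p under 0.05). Over all tested genes 48.9% were lower and 3.86% had such a p. Cnn1 (calponin) and Actg2 (smooth muscle gamma actin) had adjusted p values of 0.0014 and 0.0061 in DESeq2, with log2 differences of -1.27 and -1.44 there. The Dpp4 family and its partners had 8 of 9 tested genes with a lower value and a median of -0.26, with 0 passing in edgeR and 1 (Dpp3) at an unadjusted p under 0.05. Of 3 mesothelial and 4 adipocyte markers tested, 0 passed in edgeR and 0 had an unadjusted p under 0.05, and their medians were -0.10 and -0.50.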
